A study of Mus musculus with 17 samples.

Results

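The first day after small intestinal organoids were moved from the stem cell medium ENR+CV to the differentiation medium ENR+CD was followed in 4 of the 17 libraries of this single-cell RNA-seq series, which hold 3943 of its 19877 cells. The members were chosen by their labels alone: the 2 libraries of ENR+CV at day 0, and the ENR+CD libraries of day 0.25 (6 h) and day 1 without the XPO1 inhibitor KPT-330, 1 library each. All 4 libraries came from organoids grown from crypts of wild-type mice of the C57BL/6 strain, males and females aged 1 to 6 months. Each library holds dissociated cells of a pool of organoids, so it averages over organoids. Both media contain EGF, Noggin and R-spondin 1 (ENR) and CHIR99021, a GSK3 inhibitor that switches on Wnt signalling. ENR+CV adds valproic acid, which inhibits histone deacetylases, and ENR+CD adds DAPT, which inhibits gamma-secretase and with it Notch signalling. The switch therefore removed valproic acid and added DAPT at the same moment. The paper's methods also describe washing the organoids and replating them in Matrigel for differentiation. The series holds no ENR+CV library after day 0. The effects of valproic acid, DAPT, replating and time in culture cannot be told apart in these libraries. The comparison asked which genes had moved 6 h and 1 day after the switch, before mature secretory cells accumulate.

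Notch is a receptor that is cut by gamma-secretase when a ligand on a neighbouring cell binds it. The freed intracellular part joins the DNA-binding protein RBPJ and turns on target genes such as Hes1 and Nrarp. In the intestinal crypt, Notch activity holds progenitors in the absorptive or stem state, largely because HES1 represses Atoh1, the master regulator of all secretory lineages. Cells that escape Notch express Atoh1 and the ligands Dll1 and Dll4. They go on to become Paneth cells, goblet cells, tuft cells or, through Neurog3, hormone-producing enteroendocrine cells.

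RBPJ binds DNA through a core of the letters TGGGAA. To place the genes that the results turn on, the 250 bases before the RefSeq transcription start of 5 of them are printed below, all on the plus strand of GRCm38.p6, with each TGGGAA on either strand in capitals. Nrarp and Olfm4 stand for the Notch targets, Lfng for the enzymes that modify Notch, and Atoh1 and Neurog3 for the secretory and enteroendocrine regulators. The window of Nrarp (chr2:25180508-25180757) ends where the gene at chr2:25180758-25183339 begins.
Nrarp: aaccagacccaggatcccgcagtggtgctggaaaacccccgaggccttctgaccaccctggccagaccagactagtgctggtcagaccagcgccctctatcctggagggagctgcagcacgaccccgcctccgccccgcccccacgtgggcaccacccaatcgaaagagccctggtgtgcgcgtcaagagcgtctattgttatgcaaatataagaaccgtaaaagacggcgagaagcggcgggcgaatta
Olfm4, chr14:80000052-80000301, holds 1 match: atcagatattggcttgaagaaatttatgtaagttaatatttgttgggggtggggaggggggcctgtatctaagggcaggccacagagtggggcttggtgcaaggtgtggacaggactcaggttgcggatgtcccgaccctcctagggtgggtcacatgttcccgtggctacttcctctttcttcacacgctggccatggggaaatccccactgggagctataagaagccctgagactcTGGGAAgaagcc
Lfng, chr5:140607091-140607340, holds 2 matches: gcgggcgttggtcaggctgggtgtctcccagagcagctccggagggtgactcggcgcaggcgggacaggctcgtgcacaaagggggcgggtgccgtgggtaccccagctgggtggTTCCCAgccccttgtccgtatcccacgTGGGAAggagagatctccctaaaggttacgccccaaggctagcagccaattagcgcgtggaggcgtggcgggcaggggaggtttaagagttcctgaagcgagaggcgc
Atoh1, chr6:64728875-64729124, holds none: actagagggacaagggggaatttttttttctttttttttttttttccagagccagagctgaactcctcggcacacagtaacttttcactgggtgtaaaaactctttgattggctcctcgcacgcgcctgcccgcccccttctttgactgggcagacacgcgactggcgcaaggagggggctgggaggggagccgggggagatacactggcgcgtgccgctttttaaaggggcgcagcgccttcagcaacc
Neurog3, chr10:62132840-62133089, holds none: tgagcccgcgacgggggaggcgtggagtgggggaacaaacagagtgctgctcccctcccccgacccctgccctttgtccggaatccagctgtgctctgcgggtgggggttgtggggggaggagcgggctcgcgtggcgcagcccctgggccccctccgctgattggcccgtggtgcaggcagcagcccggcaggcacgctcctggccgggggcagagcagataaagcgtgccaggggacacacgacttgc

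The match before Olfm4 begins 12 bases before the start, and those before Lfng begin 135 bases (minus strand) and 108 bases (plus strand) before it. In the GENCODE annotation of the same build the Olfm4 window lies inside the gene model, which begins further upstream. Of all 32851 promoter windows of this length in the RefSeq table, 7094 (21.6%) held the motif, as did 2166 of 9232 tested genes with a window (23.5%). Among the genes called higher at day 1 that had a window, 36 of 116 (31%) held it, and among those called lower 10 of 44 (22.7%). A match is only a string of letters, and a window without one says nothing of binding elsewhere.

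The 4 libraries held 531 to 1465 kept cells and 4481188 to 7982400 UMIs, where a UMI (unique molecular identifier) marks 1 captured RNA molecule. Median UMIs per cell ranged from 4219 to 6842 and the median share of mitochondrial UMIs from 10.9% to 18.3%. The 4 libraries shared 0 cell barcodes with each other. UMIs were summed over the kept cells of a library, and levels are given as CPM, the UMIs of a gene per 1000000 UMIs of its library after TMM scaling. In such sums, fewer cells of a type and less RNA per cell cannot be told apart. The libraries were epithelial: 11 epithelial markers summed to 7099, 8156, 7555 and 8743 of 1000000 UMIs (here without TMM) in the order day 0 replicate 1, day 0 replicate 2, day 0.25 and day 1, which is the order of all value lists here. Mesenchymal markers summed to 15.7 to 27.3, with Dcn at 0 in all 4 libraries. Immune markers summed to 4.71 to 8.75, with the B cell marker Cd79a at 0, and endothelial and neural markers to 3.57 to 12.01 on the same scale.

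The day 0 libraries were not alike as files. Day 0 replicate 2 listed 16266 genes, of which 2510 had 1 or 2 UMIs, whereas the other 3 libraries listed 21001 to 21652 genes with 4986 to 5208 at that level. In this, replicate 2 resembled the 11 libraries of days 2 to 6, and replicate 1 resembled the libraries of days 0.25 and 1. A set of mitochondrial ribosomal and transfer RNAs and other structural or repeat RNAs took 9.82% of UMIs in replicate 2, against 15.2% in replicate 1, 11.4% at day 0.25 and 12.6% at day 1. Labels name no batch, and each day 0 library was left out in turn. Such a fit has 3 instead of 4 residual degrees of freedom and 1 library at day 0. A call lost there may thus reflect lower precision and cannot show the part of this split. A block for the replicate number was also fitted, and no call was left at day 0.25. That number does not follow this split, since libraries of both numbers at days 3 and 6 resembled day 0 replicate 2. The SD of the log2 difference between the day 0 libraries was 0.38 over 7137 genes, within the 0.28 to 0.45 of the other 3 replicate pairs of the series. What separates the replicates, cultures or arrays, is not given, so the p-values measure the spread between these samples, which may be technical.

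Among 7022 genes averaging at least 20 CPM, 143 differed 2-fold or more between day 0.25 and day 0, and 283 between day 1 and day 0. The day 0 libraries themselves differed that much in 72 genes. For the tests, edgeR's quasi-likelihood model was fitted to 12587 genes in all 17 libraries with Benjamini-Hochberg (BH) adjustment, and a gene was called at an adjusted p under 0.05. The lone libraries of day 0.25 and day 1 were assumed to vary as the 4 replicated groups did. Changes are log2 fold changes ± SE, for 2 day 0 libraries and 1 library of each later time. Both contrasts share the day 0 libraries and so are not independent of each other.

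At day 0.25, 19 genes were called (0.151%), 8 higher (0.0636%) and 11 lower (0.0874%). At day 1 the count was 219 (1.74%), of which 165 were higher (1.31%) and 54 lower (0.429%). Between day 0.25 and day 1, 62 genes were called (0.493%), 60 higher (0.477%) and 2 lower (0.0159%) at day 1. With the mean of both ENR+CD libraries against day 0, 284 genes were called (2.26%), 123 higher (0.977%) and 161 lower (1.28%). The 4 libraries alone, 2 against 2, gave 0 calls for that mean, so its calls depend on the fit to all 17 libraries. At day 0.25 and at day 1, the level of every called gene lay outside the range of both day 0 libraries. Without day 0 replicate 1 the counts were 4, 98 and 37 for day 0.25, day 1 and the mean against day 0. Without day 0 replicate 2 they were 1, 75 and 11. Scaling by library totals instead of TMM left 2 genes at day 0.25, both lower, and 25 higher against 80 lower genes for the mean. The median log2 fold change over all tested genes was 0.01 at day 0.25 and −0.02 at day 1.

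**Figure D1:**
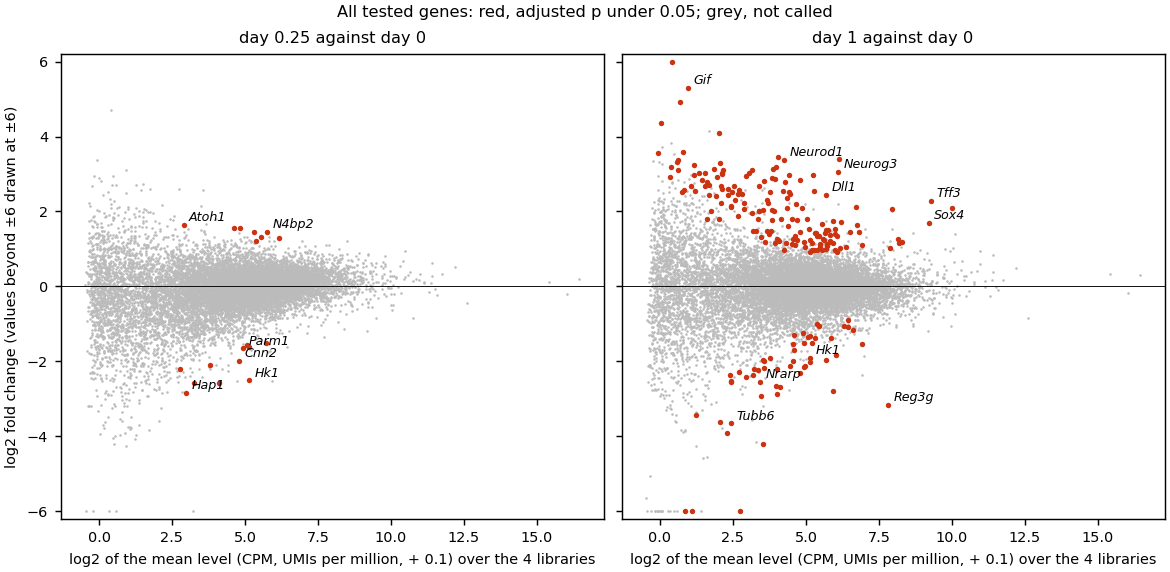
Log2 fold change of each of the 12587 tested genes against log2 of its mean level (CPM + 0.1), for day 0.25 and day 1 against day 0 (2 libraries), with called genes in red and values beyond ±6 drawn at ±6. Few genes are red at day 0.25 (19), while at day 1 most red points (165 of 219) lie above 0.

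Of 8 listed Notch target genes, 3 had enough UMIs to be tested. None was called at day 0.25, and 2, Nrarp and Olfm4, fell at day 1, against 0.429% of all tested genes called lower. Hes5, Hes7, Hey1, Hey2 and Heyl stayed under the minimum of 20 UMIs. All 3 tested targets were below both day 0 libraries at both times, where 35.4% of all tested genes were below both at day 0.25 and 39.1% at day 1. The median log2 fold change of the targets was −1.14 at day 0.25 and −2.12 at day 1.

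Nrarp, a feedback inhibitor that destabilises the Notch complex, stood at 16.4 and 18.2 CPM in the day 0 libraries, 4.98 at day 0.25 and 2.95 at day 1. The day 0 libraries lay close together and well above both later ones. Its log2 fold change was −1.80 ± 0.39 at day 0.25 (adjusted p = 0.0742, edgeR quasi-likelihood test with BH adjustment) and −2.55 ± 0.44 at day 1 (adjusted p = 0.0168, same test), or 0.171 times the day 0 level. Olfm4, a Notch-dependent marker of crypt base stem cells, had levels of 39.3, 53.2, 21.1 and 10.7 CPM. Its order was the same, with day 1 the lowest, and the change at day 1 was −2.12 ± 0.40 (edgeR, adjusted p = 0.0324). Hes1, the repressor of Atoh1 (chr16:30064384-30067796), gave 76.4, 88.2, 45.1 and 40.6 CPM. The ENR+CD libraries were both below the day 0 pair, yet the log2 fold changes of −0.87 ± 0.31 and −1.02 ± 0.32 missed the threshold (edgeR, adjusted p = 0.203 and 0.127). Without day 0 replicate 2, neither Nrarp nor Olfm4 was called at day 1; without replicate 1, Nrarp was.

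Of 5 Notch ligands, Dll1 and Dll4 rose at day 1, when 1.31% of all tested genes were called higher. None was called at day 0.25. At that time 2 were above and 3 below both day 0 libraries (median log2 fold change −0.71), against 38.1% and 35.4% of all tested genes. Dll1, the ligand shown by early secretory cells, measured 28.5, 16.1, 42.7 and 118 CPM. Both ENR+CD libraries were above both day 0 libraries, and the gain at day 1 was 5.43-fold (log2 2.44 ± 0.27, edgeR, adjusted p = 0.00143). Dll4, a second Delta ligand of the crypt, read 11.8, 7.24, 24.6 and 66.6 CPM and was 7.20-fold higher at day 1 (log2 2.85 ± 0.32, edgeR, adjusted p = 0.00194). At day 0.25 the log2 fold changes were 0.97 ± 0.27 for Dll1 and 1.41 ± 0.34 for Dll4 (edgeR, adjusted p = 0.122 and 0.0898). Both calls at day 1 held without either day 0 library. Jag2, a ligand of the Jagged family, was at 4.78, 9.39, 1.62 and 2.03 CPM, below day 0 at both times, and was called lower only over the mean of both times (log2 −1.997 ± 0.45, edgeR, adjusted p = 0.047). That call was lost without either day 0 library. Jag1 was also below both day 0 libraries (18.5, 16.2, 10.5 and 11.2) without a call, and the Delta ligand Dll3 was scarce (0.623, 1.24, 0.231 and 1.11), inside the day 0 range at day 1 and not called.

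Among 19 Notch receptors and processing genes, Lfng and Mfng rose at day 1 (1.31% of all tested genes were called higher). The median log2 fold change was 0.12. Lfng and Mfng encode Fringe glycosyltransferases, which add sugars to Notch and alter its response to ligands. Lfng rose from 13.1 and 10.1 to 26.3 and then 34.7 CPM (day 1, log2 1.60 ± 0.34, edgeR, adjusted p = 0.0457). Mfng was at 0.831 and 0.566 CPM in the day 0 libraries and 0.810 at day 0.25, all low, and reached 6.45 at day 1 (log2 3.24 ± 0.67, edgeR, adjusted p = 0.04). Neither call held when a day 0 library was left out. The receptor Notch1 (26.8, 33.7, 44.7 and 39.3) and Rbpj itself (11.01, 9.95, 13.1 and 13.5) were above both day 0 libraries at both times and not called.

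**Figure D2:**
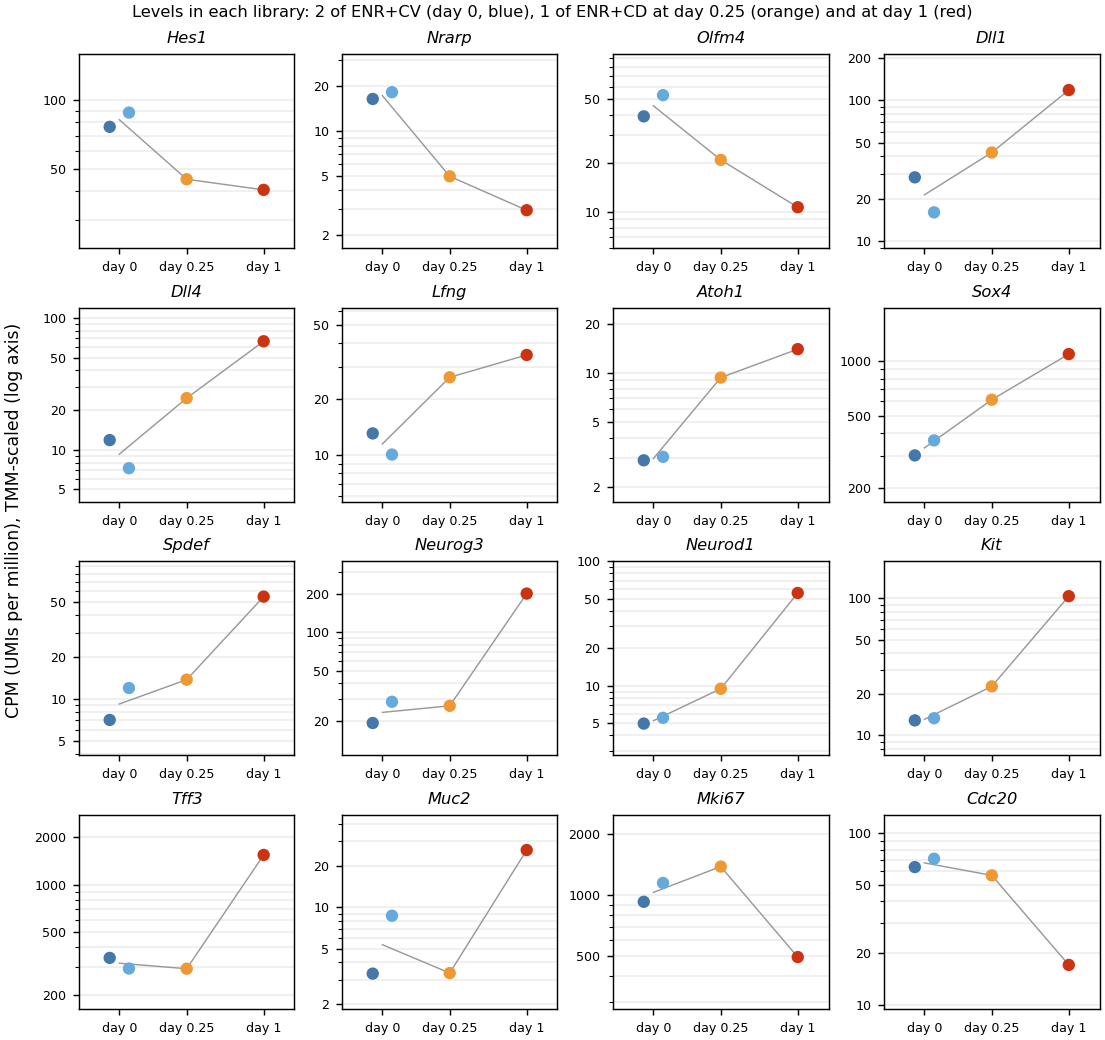
Level of 16 genes (CPM, log axis) in the 2 day 0 libraries, the day 0.25 library and the day 1 library, each point 1 library, with a line from the geometric mean of day 0 and day spacing not to scale. Nrarp and Olfm4 step down at day 0.25 and again at day 1, Atoh1 steps up at both, and Neurog3, Tff3 and Kit are near their day 0 levels at day 0.25 and high at day 1.

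Of the 16 secretory lineage factors, 8 were above both day 0 libraries at 6 h, where 38.1% of all tested genes were. Atoh1 was the 1 member called higher at that time. It had 14 and 27 UMIs in the day 0 libraries, 81 at day 0.25 and 76 at day 1, which gave levels of 2.91, 3.05, 9.37 and 14.0 CPM. The day 0 libraries nearly coincided and both later libraries were well above them. Atoh1 (chr6:64729125-64731245) was 3.12-fold higher at day 0.25 (log2 1.64 ± 0.26, edgeR, adjusted p = 0.0484) and 4.66-fold higher at day 1 (log2 2.22 ± 0.26, edgeR, adjusted p = 0.00234). The day 0.25 call sat just under the threshold and was kept in 7 of 14 alternative runs. It was lost without either day 0 library, without mitochondrial genes and with cells of at least 1000 genes. The day 1 call was kept without either day 0 library.

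At day 1, 9 of the 16 secretory factors rose, against 1.31% of all tested genes called higher, and none fell. All 16 were above both day 0 libraries, where 36.6% of all tested genes were. The median log2 fold change of the list went from 0.23 at day 0.25 to 1.72 at day 1. Sox4, a transcription factor of early secretory and tuft progenitors, climbed at each step, with 303, 366, 613 and 1091 CPM. Each ENR+CD library exceeded both day 0 libraries, and the day 1 gain was 3.26-fold (log2 1.71 ± 0.31, edgeR, adjusted p = 0.0234). Spdef, which drives maturation of goblet and Paneth cells downstream of ATOH1, was measured at 7.06, 11.99, 13.8 and 54.6 CPM. Day 0.25 was barely above the higher day 0 library (log2 0.48 ± 0.28, edgeR, adjusted p = 0.424), whereas day 1 was 5.54-fold higher (log2 2.47 ± 0.26, edgeR, adjusted p = 0.00139). Foxa3, a forkhead factor, was at 29.9, 27.6, 42.5 and 73.6 CPM and rose at day 1 (log2 1.36 ± 0.23, edgeR, adjusted p = 0.0152).

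The remaining called secretory factors are parts of the machinery that a secretory cell needs. Creb3l1 and Creb3l4 encode transcription factors anchored in the endoplasmic reticulum, and Bhlha15 (MIST1) encodes a scaling factor for secretory vesicles. Creb3l1 read 4.98, 9.62, 9.14 and 53.3 CPM and Creb3l4 3.53, 5.88, 6.71 and 19.2. For both, the day 1 library was far above the other 3 (log2 2.80 ± 0.31 and 1.96 ± 0.28, edgeR, adjusted p = 0.00143 and 0.00579). Bhlha15 gave 9.14, 10.3, 11.2 and 50.2 CPM, a rise at day 1 of 2.36 ± 0.24 on the log2 scale (edgeR, adjusted p = 0.00127). Hepacam2, a marker of secretory progenitors, was nearly flat until day 0.25 and then rose (8.31, 10.97, 10.5 and 55.9; log2 2.51 ± 0.25, edgeR, adjusted p = 0.00127). Tff3, a trefoil peptide secreted with mucus, did the same at 343, 294, 293 and 1544 CPM (4.85-fold, log2 2.28 ± 0.30, edgeR, adjusted p = 0.00398). Spdef, Creb3l1, Bhlha15, Hepacam2 and Tff3 were also called between day 0.25 and day 1. Of the 9 calls at day 1, 7 were kept without either day 0 library; those of Sox4 and Foxa3 were lost both times. Sox9, needed for Paneth cells, was at 87.2, 102, 82.7 and 103 CPM, Xbp1, a regulator of secretory protein folding, at 156, 130, 153 and 162, and Gfi1, which separates goblet and Paneth from enteroendocrine fate, at 1.25, 2.94, 1.85 and 7.56, none with a call.

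Enteroendocrine factors were near their day 0 levels at 6 h and rose by day 1. Of 17 tested factors, 9 rose at day 1, against 1.31% of all tested genes called higher, and none was called at day 0.25. The median log2 fold change of the factors went from 0.13 to 2.92. At day 1, 16 of the 17 were above both day 0 libraries, against 36.6% of all tested genes. Neurog3 (chr10:62133090-62134763), the factor that commits a progenitor to the endocrine fate, had levels of 19.3, 28.4, 26.4 and 202 CPM. The day 0.25 library lay between the day 0 libraries (log2 0.13 ± 0.30, edgeR, adjusted p = 0.872), and the day 1 library was 8.37-fold higher than day 0 (log2 3.06 ± 0.27, edgeR, adjusted p = 0.00102). The step from day 0.25 to day 1 was itself called (log2 2.94 ± 0.35, edgeR, adjusted p = 0.014).

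Neurod1, which acts after Neurog3, was at 4.98, 5.54, 9.49 and 55.7 CPM and rose 10.5-fold at day 1 (log2 3.39 ± 0.31, edgeR, adjusted p = 0.00102). Insm1, a zinc finger repressor of endocrine cells, gave 2.70, 6.00, 5.90 and 51.1 CPM (log2 3.46 ± 0.40, edgeR, adjusted p = 0.00211). In both genes day 1 stood far above the other 3 libraries. The homeodomain factor Nkx2-2 (3.12, 2.71, 2.89 and 23.6) and the winged helix factor Rfx6 (3.95, 2.04, 3.01 and 21.6) rose by 3.03 ± 0.34 and 2.94 ± 0.36 on the log2 scale (edgeR, adjusted p = 0.00191 and 0.00292). The other 4 called factors, Pax4, Pax6, Fev and St18, rested on lower levels: Pax4 reached 10.1, Pax6 3.503, Fev 11.1 and St18 12.4 CPM at day 1, with at most 2.08 in either day 0 library. The calls of Neurog3, Neurod1, Insm1, Nkx2-2 and Rfx6 held without either day 0 library, those of Pax4, Pax6 and Fev in neither case, and that of St18 only without replicate 1. Pdx1, a patterning factor of the proximal intestine on the same list, was at 33.4, 31.2, 20.2 and 23.6 CPM, below day 0 and not called.

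Of the 18 enteroendocrine products listed, 11 were tested, and 3 rose at day 1, against 1.31% of all tested genes called higher. All 3 are general parts of hormone granules. Chgb, a granin, was at 16.2, 25.7, 12.2 and 225 CPM, so that day 0.25 was the lowest library (log2 −0.80 ± 0.49, edgeR, adjusted p = 0.445) and day 1 the highest by 10.6-fold (log2 3.41 ± 0.43, edgeR, adjusted p = 0.00314). Chga, the other granin, gave 1.66, 8.03, 5.32 and 48.1 CPM (day 1, log2 3.18 ± 0.55, edgeR, adjusted p = 0.0178), and Cpe, a hormone-processing carboxypeptidase, gave 3.53, 5.77, 3.82 and 34.1 (log2 2.81 ± 0.36, edgeR, adjusted p = 0.00321). Without day 0 replicate 1 the call of Chga was lost and those of Chgb and Cpe were kept. All 11 tested products were above both day 0 libraries at day 1, against 36.6% of all tested genes. The hormone genes Gcg and Sst had 0 UMIs in all 4 libraries. Cck had 6 and 145 UMIs in the day 0 libraries and 0 at day 0.25, a difference that was not called, with the day 0 libraries themselves far apart. Of 10 tuft cell genes only 1 passed the UMI minimum, without a call.

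**Figure D3:**
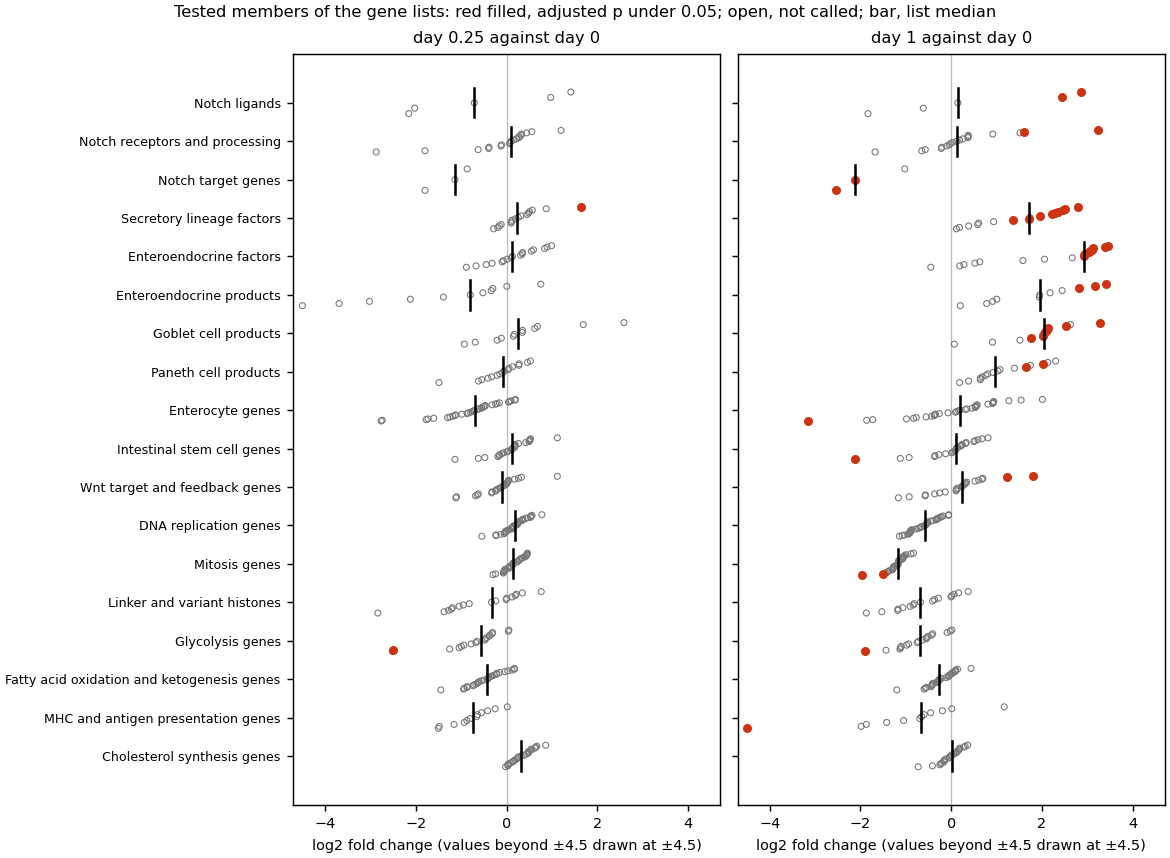
Log2 fold change of each tested member of 18 gene lists at day 0.25 and at day 1 against day 0, with called genes as filled red points, the list median as a bar and values beyond ±4.5 drawn at ±4.5. The medians of the secretory (0.23 to 1.72) and enteroendocrine factors (0.13 to 2.92) move up between the times, and that of the mitosis genes moves down (0.14 to −1.17).

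Goblet cell products rose at day 1, and 7 of 12 were called higher, against 1.31% of all tested genes. At that time 11 were above both day 0 libraries, where 36.6% of all tested genes were. Their median log2 fold change was 2.05, against 0.26 and no call at day 0.25. Fcgbp, a mucus-binding protein, was the most even example: 570 and 567 CPM at day 0, 492 at day 0.25 and 2443 at day 1. Its day 0.25 library was slightly below the day 0 pair, and its day 1 change was 2.104 ± 0.33 on the log2 scale (edgeR, adjusted p = 0.0107). Muc2, the gel-forming mucin of goblet cells, measured 3.32, 8.71, 3.36 and 26.0 CPM. The day 0.25 value fell inside the day 0 range, and day 1 was above it (log2 2.02 ± 0.39, edgeR, adjusted p = 0.0292). Agr2, a disulphide isomerase needed for mucin folding, read 28.9, 80.7, 70.4 and 243 CPM (day 1, log2 2.13 ± 0.43, edgeR, adjusted p = 0.0346). Spink4, Atoh8, Guca2a and Ramp1 were the other called members. Leaving out day 0 replicate 1 kept 2 of the 7 calls (Agr2 and Atoh8), and leaving out replicate 2 kept 4 (Muc2, Agr2, Spink4 and Ramp1).

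Of 16 tested Paneth cell products, Mmp7 and Habp2 rose at day 1, against 1.31% of all tested genes called higher. All 16 were above both day 0 libraries then, where 36.6% of all tested genes were. Mmp7, the protease that activates alpha-defensins, was at 81.8, 58.6, 72.7 and 218 CPM (log2 1.64 ± 0.31, edgeR, adjusted p = 0.0264), and Habp2, a secreted serine protease, at 6.23, 10.97, 7.06 and 36.0 (log2 2.02 ± 0.28, edgeR, adjusted p = 0.00579). For both, day 0.25 lay between the day 0 libraries. Lyz1, the lysozyme of Paneth granules, was at 810, 1061, 960 and 1458 CPM, inside the day 0 range at 6 h and above it at day 1 (log2 0.64 ± 0.39, edgeR, adjusted p = 0.403). Defa24, an alpha-defensin, read 539, 1055, 690 and 2093 CPM without a call (log2 1.39 ± 0.52, edgeR, adjusted p = 0.187). Alpha-defensin genes are near-identical copies, so reads may have been split or swapped among them. The median log2 fold change of the Paneth list was −0.07 at day 0.25 and 0.97 at day 1.

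No absorptive gene was called at 6 h. Of 33 enterocyte genes, 26 were below both day 0 libraries at day 0.25, against 35.4% of all tested genes, and their median log2 fold change was −0.70. Fabp2, a fatty acid-binding protein, was at 459, 427, 201 and 259 CPM, and Apoa4, an apolipoprotein of chylomicrons, at 87.8, 103, 40.2 and 74.1. Both were lowest at day 0.25. Sis, the brush border sucrase-isomaltase, was at 294 and 136 CPM in the day 0 libraries, 117 at day 0.25 and 318 at day 1, with the day 0 pair itself far apart. At day 1 the enterocyte genes were mixed, 14 of 33 above and 11 below both day 0 libraries, against 36.6% and 39.1% of all tested genes. Their median was 0.19, and it was 0.42 without replicate 1 and −0.03 without replicate 2. The 1 called member was Reg3g, an antimicrobial lectin, with 197, 465, 196 and 37.2 CPM (day 1, log2 −3.15 ± 0.68, edgeR, adjusted p = 0.045); it was not called without replicate 2. Of 27 genes of fatty acid oxidation and ketogenesis, 21 were below both day 0 libraries at day 0.25 (median −0.43), against 35.4% of all tested genes. None of the 27 was called at either time. The 9 tested respiratory chain genes of the mitochondrial genome had medians of −0.55 and −0.13 with no call.

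Few stem cell and Wnt target genes were called at either time. Of 24 intestinal stem cell genes, only Olfm4 was called, and the median log2 fold change was 0.13 at day 0.25 and 0.11 at day 1. Lgr5, the R-spondin receptor that marks crypt base stem cells, was at 74.8, 130, 104 and 114 CPM, with both ENR+CD libraries inside the day 0 range. Smoc2, a secreted stem cell marker, read 823, 993, 975 and 752. Axin2, a direct Wnt target, gave 202, 234, 185 and 199 CPM, a change of −0.24 and −0.13 on the log2 scale. Among 23 tested Wnt target and feedback genes, 4 were above and 13 below both day 0 libraries at day 0.25, with a median of −0.11. At day 1, 13 were above and 7 below, with a median of 0.23. Of all tested genes, 38.1% were above and 35.4% below at day 0.25, and 36.6% and 39.1% at day 1. Of the Wnt genes, Nkd1 and Prox1 were called higher at day 1, against 1.31% of all tested genes. Nkd1, a feedback inhibitor of Wnt, was at 21.0, 19.6, 16.1 and 47.4 CPM (log2 1.23 ± 0.27, edgeR, adjusted p = 0.0464). Prox1, a homeobox factor that enteroendocrine cells also express, was at 15.4, 24.5, 20.9 and 71.0 (log2 1.81 ± 0.30, edgeR, adjusted p = 0.0133). Ccnd1, cyclin D1, went from 139 and 157 to 94.8 and 66.2 CPM, below both day 0 libraries at both times, without a call (day 1, log2 −1.16 ± 0.32, edgeR, adjusted p = 0.0878).

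Of 28 mitosis genes, 2 fell at day 1, against 0.429% of all tested genes called lower, and none was called at 6 h. All 28 were below both day 0 libraries at day 1, where 39.1% of all tested genes were, and 17 were above both at day 0.25, where 38.1% were. Their median log2 fold change went from 0.14 to −1.17. Cdc20, an activator of the anaphase-promoting complex, was at 63.3, 70.8, 56.7 and 17.1 CPM and fell at day 1 (log2 −1.97 ± 0.41, edgeR, adjusted p = 0.04). Aurka, a mitotic kinase, was at 48.8, 37.2, 47.1 and 15.1 and fell too (log2 −1.50 ± 0.30, edgeR, adjusted p = 0.0341). These were the 2 calls of the list, and neither was kept without a day 0 library. Mki67, the proliferation antigen Ki-67, was highest at day 0.25 and lowest at day 1 (929, 1151, 1385 and 497 CPM). Its day 1 change was −1.07 ± 0.50 on the log2 scale, which was not called (edgeR, adjusted p = 0.284). Of 34 DNA replication genes, 31 were below both day 0 libraries at day 1, against 39.1% of all tested genes. Their median was −0.58, and none was called. Rrm2, a subunit of ribonucleotide reductase, read 94.3, 71.0, 95.1 and 38.9, and Pcna, the replication clamp, 127, 103, 138 and 101 CPM. None of 9 CDK inhibitor genes was called.

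Of 18 glycolysis genes, 1 fell at each time, against 0.0874% of all tested genes called lower at day 0.25 and 0.429% at day 1. At day 0.25 and also at day 1, 15 were below both day 0 libraries, where 35.4% and 39.1% of all tested genes were. The medians were −0.57 and −0.68. Hk1, hexokinase 1, which catalyses the first step of glycolysis, was at 68.9, 45.9, 10.1 and 15.3 CPM. Both ENR+CD libraries were far below the day 0 pair, and Hk1 fell at day 0.25 (0.177 times day 0, log2 −2.50 ± 0.30, edgeR, adjusted p = 0.0318) and at day 1 (0.268 times, log2 −1.90 ± 0.29, edgeR, adjusted p = 0.0103). Both calls were kept without either day 0 library. Pfkp, the platelet-type phosphofructokinase, was at 207, 179, 93.4 and 88.9 CPM and was called lower only over the mean of both times (log2 −1.08 ± 0.21, edgeR, adjusted p = 0.037), a call lost without either day 0 library. Ldha (580, 632, 434 and 414) and Pkm (624, 743, 504 and 482), the last enzymes of the pathway, were below day 0 without a call.

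Chromatin genes were listed because ENR+CV contains an inhibitor of histone deacetylases. Of 17 linker and variant histones, none was called at either time alone and 2 were called lower over the mean of both. H1f0, a linker histone of cells that stop dividing, was at 758 and 870 CPM at day 0, 356 at day 0.25 and 360 at day 1. The ENR+CD libraries were nearly equal and well below the day 0 pair (mean of both times, log2 −1.19 ± 0.21, edgeR, adjusted p = 0.031). Hist1h1c, another linker histone, showed 115, 71.2, 39.9 and 41.1 CPM (log2 −1.20 ± 0.23, edgeR, adjusted p = 0.036). The call of H1f0 was lost without either day 0 library and that of Hist1h1c without replicate 1. None of 11 tested histone deacetylases and 11 acetyltransferases and readers was called. At day 0.25, 3 deacetylases were above and 6 below both day 0 libraries, and at day 1, 4 were above and 3 below. Shares over all tested genes were 38.1% above and 35.4% below at day 0.25, then 36.6% and 39.1% at day 1. The medians of the deacetylases were −0.43 and 0.04. Hdac1 was below at both times (26.6, 27.7, 16.2 and 13.8 CPM). Of the acetyltransferases and readers, 10 were above both day 0 libraries at day 0.25 and 8 at day 1. Of all tested genes, 38.1% and 36.6% were. The medians of that list were 0.45 and 0.29. Of the 11 tested neuronal genes, a list of genes often silenced outside the nervous system, Nefm (6.65, 6.33, 5.09 and 22.7), Tubb3 (1.04, 0.792, 1.97 and 7.38) and Celf3 (0.208, 0.452, 1.27 and 4.61) rose at day 1, none of them kept without a day 0 library. Of all tested genes, 1.31% were called higher at day 1. The neuronal list was mixed, with 6 of the 11 above and 5 below both day 0 libraries at day 1. Its medians were −0.34 at day 0.25 and 0.53 at day 1, and Stmn2 and Stmn3 had 0 UMIs in all 4 libraries. Enteroendocrine cells also express neuronal genes.

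Of 12 tested MHC and antigen presentation genes, 11 were below both day 0 libraries at day 0.25 and 10 at day 1 (35.4% and 39.1% of all tested genes were). The medians were −0.73 and −0.67. At day 1, 1 was called lower, against 0.429% of all tested genes. H2-Ab1, a chain of MHC class II, had 25 and 149 UMIs in the day 0 libraries, 35 at day 0.25 and 0 at day 1. A library with 0 UMIs allows up to 3, so its day 1 level was at least 9.39-fold lower than in day 0 replicate 1 and at least 30.5-fold lower than in replicate 2 (edgeR, adjusted p = 0.0391), a call that was lost without day 0 replicate 2. Psmb8, a subunit of the immunoproteasome, was at 7.89, 10.97, 3.36 and 2.397 CPM and fell over the mean of both times (log2 −1.74 ± 0.37, edgeR, adjusted p = 0.043), which was lost without either day 0 library. The class I genes H2-D1 (208, 237, 152 and 138) and B2m (158, 166, 136 and 163) were not called. Of 23 cholesterol synthesis genes, 17 were above both day 0 libraries at day 0.25 (38.1% of all tested genes were), with a median of 0.32 that was 0.01 at day 1 and no call. Neither 25 immediate early and ERK feedback genes nor 12 heat shock genes gave a call. The list of regenerative epithelium and YAP activity did not rise as a whole. At day 1, 5 of its 16 tested members were above and 8 below both day 0 libraries (36.6% and 39.1% of all tested genes were). Its median at day 1 was −0.32. Of all tested genes, 1.31% were called higher then. Of 16 genes of regenerative epithelium and YAP activity, Amotl2 (5.19, 4.86, 9.95 and 37.1; log2 2.89 ± 0.31, edgeR, adjusted p = 0.00141) and Krt7 (180, 200, 180 and 385; log2 1.02 ± 0.21, edgeR, adjusted p = 0.0416) rose at day 1, and Amotl2 was kept without either day 0 library. Ret, a receptor on the endothelial and neural marker list, was at 1.87, 2.94, 2.08 and 8.85 CPM and called higher at day 1 (log2 1.81 ± 0.38, edgeR, adjusted p = 0.04), though not without a day 0 library.

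The genes with the smallest p at day 0.25 were mostly outside these lists. Among those that fell, Adra2a, the alpha-2A adrenergic receptor, had levels of 24.7, 34.5, 4.98 and 4.61 CPM. It was as low at 6 h as at day 1 (log2 −2.58 ± 0.31 and −2.69 ± 0.34, edgeR, adjusted p = 0.0318 and 0.00305). Parm1, a membrane mucin-like protein, was at 47.8, 48.5, 15.3 and 10.9 CPM (log2 −1.66 ± 0.23 and −2.14 ± 0.25, edgeR, adjusted p = 0.0411 and 0.00211). Myh10, a non-muscle myosin heavy chain (50.05, 59.6, 17.9 and 13.6), Cnn2, an actin-binding calponin (41.3, 49.5, 11.5 and 9.22), and Sec14l2, a lipid-binding protein (48.0, 49.998, 16.4 and 19.2), fell at both times as well. In all of these the day 0 libraries lay close together and clear of both later ones. Klc3, a kinesin light chain, behaved differently: it was at 8.52, 8.60, 1.85 and 8.30 CPM, so it fell at 6 h (log2 −2.20 ± 0.34, edgeR, adjusted p = 0.0484), and at day 1 it was within 0.04 of day 0 on the log2 scale, a step that was called between the times (log2 2.15, edgeR, adjusted p = 0.037). Hap1, which binds huntingtin (11.6, 11.8, 1.62 and 6.45), Hapln4, a hyaluronan link protein (13.7, 16.5, 2.55 and 5.35), and the HMG-box gene Bbx (63.3, 79.9, 24.99 and 40.2) were the other named genes that fell at 6 h; all were closer to day 0 at day 1.

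Of the 8 genes called higher at 6 h, the 7 besides Atoh1 were N4bp2, Smim6, Suv420h1, Ufc1, Mpdu1, N6amt1 and Ino80c. N4bp2 was at 25.3, 31.4, 78.9 and 80.6 CPM and stayed high at day 1 (log2 1.46 ± 0.21 and 1.49 ± 0.22, edgeR, adjusted p = 0.0411 and 0.00669). Suv420h1, a methyltransferase of histone H4, was at 27.6, 29.6, 71.9 and 56.2 CPM and was called at both times (log2 1.32 ± 0.18 and 0.97 ± 0.18, edgeR, adjusted p = 0.0411 and 0.0263). Ufc1, the conjugating enzyme of the ubiquitin-like UFM1 (46.3, 42.3, 107 and 89.2), and Smim6, a small membrane protein (23.1, 19.7, 57.7 and 57.5), were likewise called at both. Mpdu1, a factor of dolichol-linked sugar use (29.9, 27.6, 66.7 and 42.8), N6amt1, a methyltransferase (21.4, 16.3, 54.8 and 22.1), and Ino80c, a subunit of the INO80 remodeller (16.4, 14.7, 45.8 and 20.5), were nearer to day 0 again at day 1 and not called then. None of these 8 calls was kept when a day 0 library was left out, and of the 10 named genes that fell only 1, Hk1, was kept both times.

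At day 1, the 10 named genes that rose were all kept without either day 0 library. Besides Neurog3, Neurod1, Spdef, Hepacam2 and Bhlha15, given above, they include Kit, the receptor for stem cell factor, with 12.9, 13.3, 22.8 and 104 CPM. Its day 0 libraries nearly coincided, its day 0.25 library was somewhat higher (log2 0.79 ± 0.24, edgeR, adjusted p = 0.133), and its rise at day 1 was 7.88-fold (log2 2.98 ± 0.22, edgeR, adjusted p = 0.000512). Ern2, the endoplasmic reticulum stress sensor IRE1-beta of mucus-secreting cells, was at 7.27, 8.48, 11.1 and 46.5 CPM (log2 2.54 ± 0.21, edgeR, adjusted p = 0.000756). Epb4.2, a membrane skeleton protein, was at 4.98, 4.53, 7.29 and 41.5 (log2 3.13 ± 0.29, edgeR, adjusted p = 0.00102), and Slc12a8, a membrane transporter, at 12.3, 17.4, 22.1 and 64.2 (log2 2.09 ± 0.22, edgeR, adjusted p = 0.00141). Gif, gastric intrinsic factor, had 1 UMI in each day 0 library, 6 at day 0.25 and 35 at day 1, so its fold change rests on those few molecules. Of the genes that fell, Gnai1, an inhibitory G protein subunit (8.93, 8.60, 2.43 and 1.48), Tubb6, a tubulin (7.89, 10.9, 1.74 and 0.738), Crip2, a LIM protein (66.5, 142, 18.2 and 15.1), and Tesc, a calcium-binding protein (12.3, 18.6, 11.2 and 2.03), are the named ones not yet given. Gnai1, Crip2 and Tubb6 were low from 6 h, whereas Tesc was low only at day 1. Of the 10 named genes that fell, 9 were kept without replicate 1 and 6 without replicate 2.

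Between 6 h and day 1, the named genes that rose were Neurog3, Ern2, Kit, Hepacam2 and Ptprn2, a membrane protein of dense-core vesicles (15.8, 12.2, 9.37 and 63.2 CPM; log2 2.75 ± 0.34, edgeR, adjusted p = 0.014). The 2 that fell were Slc7a11, the cystine transporter (47.6, 40.9, 54.3 and 17.0; log2 −1.68 ± 0.28, edgeR, adjusted p = 0.031), and Coq7, an enzyme of ubiquinone synthesis (26.4, 28.6, 65.0 and 20.3; log2 −1.68 ± 0.29, edgeR, adjusted p = 0.032). Coq7 was above both day 0 libraries at 6 h and below both at day 1. Only the single libraries of the 2 times stand behind these 62 calls, with the spread taken from other groups.

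Shares of cells with at least 1 UMI were compared after each cell was thinned to 2000 UMIs, which left out 21, 12, 44 and 29 cells of lower depth and kept 510, 1453, 1097 and 777. Intervals are exact 95% binomial intervals that cover counting error only, and cells of a library are not replicates, so no test was made. As a background, the share was also taken in cells that should lack the gene: Paneth-gene-high cells of ENR+CD day 6 for Hes1, Lgr5, Olfm4, Mki67 and Fabp1, and enterocyte-gene-high cells of ENR+CD day 2 for the others (median depth 6045 and 8844.5 UMIs before thinning). For Hes1, 15.5% (12.5 to 18.9) and 16.7% (14.8 to 18.7) of cells had a UMI at day 0, 7.93% (6.40 to 9.69) at day 0.25 and 6.05% (4.48 to 7.96) at day 1, against 5.004% in the reference cells. The share was lower at 6 h than in either day 0 library, and at day 1 its interval included the background. The share for Sox4 went from 39.8% and 48.9% to 61.7% (58.8 to 64.6) at day 0.25 and 73.0% at day 1, with 5.15% as background. Dll1 was at 4.51% and 3.72% at day 0, at 7.02% (5.58 to 8.69) at day 0.25 and at 18.3% (15.6 to 21.2) at day 1. Its reference cells gave 4.04%, but they come from a day 2 library with a higher Dll1 level than day 0. Absence of Dll1 at day 0 was therefore not read from that value. For Neurog3 the shares were 1.76%, 2.34%, 2.37% and 14.3% (11.9 to 16.9) with a background of 1.10%, so that the step lay between 6 h and day 1 here too.

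Atoh1 was seen in few cells at this depth: 0.980%, 0.964%, 1.73% (1.05 to 2.69) and 3.35% (2.20 to 4.86), with 0.368% in the reference cells, and the day 0.25 interval overlapped those of day 0. Without thinning its shares were 2.07%, 1.57%, 5.61% and 8.06%. Mki67 was found in 61.6%, 74.3%, 71.8% and 29.1% (25.9 to 32.4) of cells, with 5.69% as background, so it was detected in fewer cells at day 1 only. Lgr5 was at 11.96%, 24.7%, 17.2% and 19.7% against 12.4% in the reference, the day 0 libraries being further apart than the times. Before thinning, 27.1% of the Lgr5 reference cells had a UMI of it, so this reference does not stand for absence. Muc2 reached 3.73% at day 1 from 0.392%, 1.45% and 0.456%, with 0 of 272 reference cells (up to 1.35%). Lyz1 was at 9.61%, 14.8%, 14.9% and 24.1%, and the reference cells showed 19.9% (15.3 to 25.1), an interval that overlaps those of both ENR+CD libraries. These reference cells come from a day 2 library with a higher Lyz1 level, so no expression was read from the Lyz1 shares. Of the 11 genes, the interval at day 0.25 lay above both day 0 intervals for Sox4 and below both for Hes1. At day 1 it lay above for Dll1, Lyz1, Muc2, Neurog3 and Sox4 and below for Hes1 and Mki67. Without thinning, the shares of Hes1 were 36.5%, 31.3%, 23.1% and 18.4%, and those of Neurog3 2.45%, 2.87%, 4.65% and 17.5%.

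**Figure D4:**
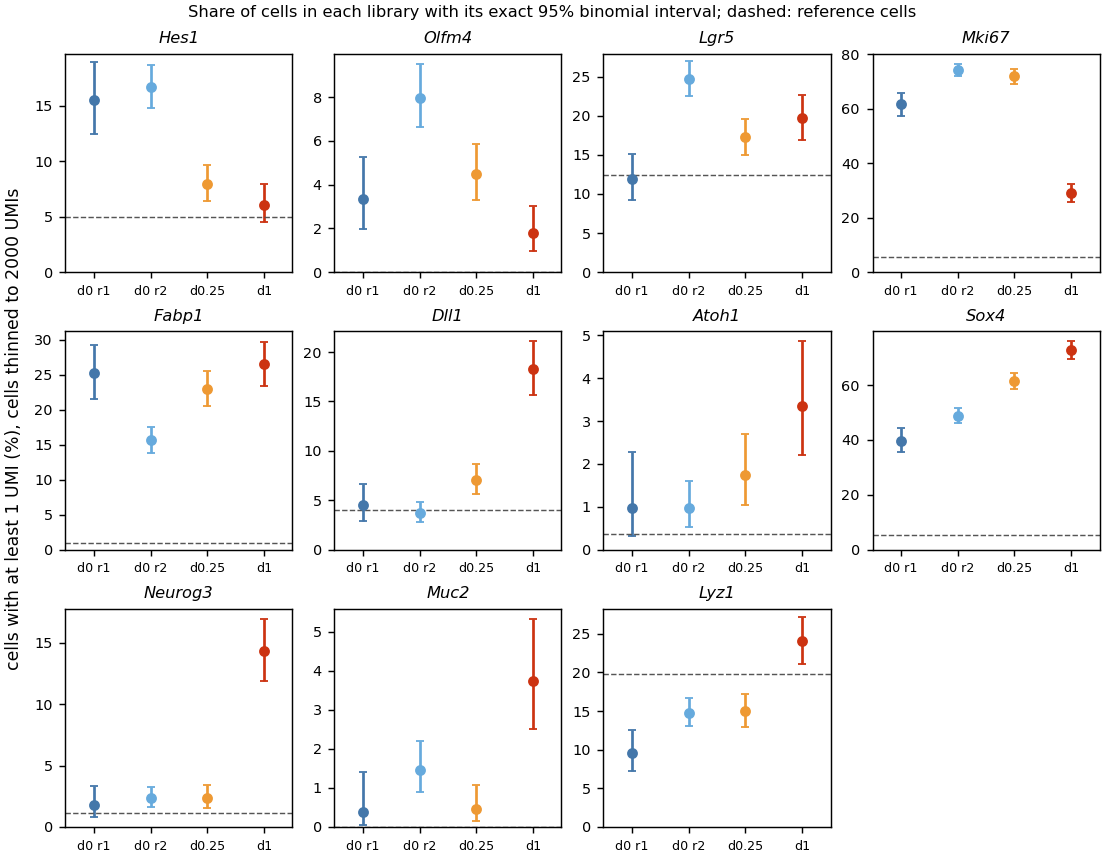
Share of cells with at least 1 UMI of each of 11 genes in the 4 libraries after thinning every cell to 2000 UMIs. Bars are exact 95% binomial intervals. The dashed line is the share in reference cells chosen to lack the gene, which for Dll1, Lgr5 and Lyz1 does not measure absence. Neurog3 and Dll1 step up at day 1 (14.3% and 18.3%), Hes1 steps down at day 0.25 (7.93%), and Mki67 steps down at day 1 (29.1%).

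At day 1, 341 of 806 cells (42.3%) had an Mki67 UMI before thinning. Among the 65 cells with an Atoh1 UMI the share was 56.9%, among the 266 with a Dll1 UMI 49.2%, and among the 141 with a Neurog3 UMI 38.3%. Cells with Atoh1 or Dll1 were deeper (median 5864 and 5180.5 UMIs) than those with Neurog3 (4455), and the part of depth in this order was not tested. The order was not the same at the earlier times. Among cells with an Atoh1 UMI the Mki67 share was 72.7% of 11 and 60.9% of 23 cells in the day 0 libraries, against 77.4% and 83.3% of all cells. At day 0.25 it was 84.4% of 64 cells, against 83.5% of all cells. Among cells with a Dll1 UMI it was 73.4%, 75.5% and 85.1% in the same 3 libraries.

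The later untreated libraries place the first day in the course of the differentiation. Nrarp stayed low, at 2.46, 1.59 and 1.25 CPM on days 2, 3 and 4 and 1.44 and 1.502 in the day 6 pair. Dll1 had its highest level at day 1, with 65.2, 58.8 and 34.5 on days 2, 3 and 4 and 25.2 and 27.0 on day 6. Atoh1 went on to 28.8, 42.7 and 34.2 and then 26.4 and 25.3, while Neurog3 had already reached its later range of 185 to 281 at day 1. The product genes came later still: Chgb climbed from 225 at day 1 to 655, 2092, 2340 and then 3812 and 4081, and Lyz1 from 1458 to 3801, 6999 and 11940 and then 12065 and 12570 CPM. Parm1 and Hk1, which had fallen at 6 h, were at 28.5 to 30.7 and 22.1 to 24.7 on day 6, below their day 0 levels. Each of these times but day 6 is 1 library, and no test was made over them.

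**Figure D5:**
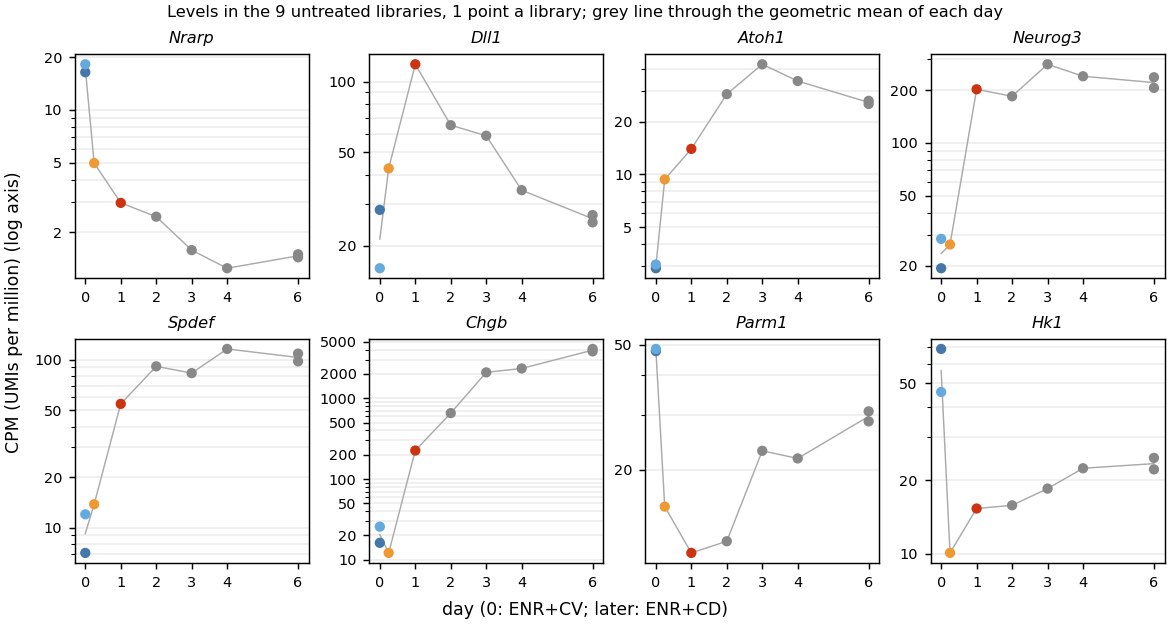
Level of 8 genes (CPM, log axis) in the 9 untreated libraries from day 0 to day 6, each point 1 library, with a line through the geometric mean of each day. Dll1 is highest at day 1, Neurog3 is level from day 1, and Chgb goes on rising to day 6 (3812 and 4081).

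KPT-330-treated libraries of the same times gave for Atoh1 7.14 CPM at day 0.25 and 21.8 at day 1, for Nrarp 8.16 and 3.35, for Dll1 45.1 and 124, and for Neurog3 23.3 and 80.1. The Neurog3 level at day 1 was thus 202 without and 80.1 with KPT-330, 1 library each.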

How the data were processed

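Single-cell RNA-seq by Seq-Well S3, an array of wells with barcoded beads, was run on 17 samples of mouse small intestinal organoids. The authors demultiplexed reads with bcl2fastq, aligned them to mm10 with STAR in the Drop-seq pipeline, collapsed UMIs and deposited raw UMI counts per gene and cell for each sample. The merged table they deposited names the cells kept after limits of at least 500 genes, fewer than 30000 UMIs and under 35% mitochondrial UMIs, a housekeeping filter and doublet removal. The study's own tests compared single cells; here UMIs were summed per library, because cells are not replicates. All columns belonged to a sample of the series.

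Sums were tested in edgeR 4.0.16 (R 4.3.3) by the quasi-likelihood test with TMM scaling, a group mean per condition over 17 libraries and 13 groups (4 residual degrees of freedom), on genes with at least 20 UMIs over the 4 libraries; p-values were adjusted by the Benjamini-Hochberg method over 12587 genes. The SE is the log2 fold change divided by the square root of F. Totals of 4481188 to 7982400 UMIs gave a median SE of 0.28 at day 0.25 and 0.29 at day 1, and the smallest called log2 fold changes were 1.22 and 0.91. The scripts were tested on simulated data. Python 3.11.15 with numpy 2.4.6, pandas 2.3.3, scipy 1.17.1 and matplotlib 3.10.9 made the sums, shares and plots. Reference cells for the shares had at least 10% of UMIs from Paneth genes or 2% from enterocyte genes.

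Described genes are members of gene lists plus genes of smallest p that were called and changed at least 2-fold. For each time against day 0 these were up to 10 higher and 10 lower genes that also lay outside both day 0 libraries. Between day 0.25 and day 1 they were up to 5 and 5, without that last condition. From these genes of smallest p, mitochondrial, ribosomal and unnamed gene models were left out. Members and lists were chosen with earlier results of these data known. Other counts, scalings, filters, DESeq2 1.42.0, limma 3.58.1, a replicate block and fits without a day 0 library were tried as alternatives. The merged table gave the cell names, and the tests used the counts deposited for each sample. In the 4 libraries, sums over the same cells in the merged table differed for 1551 to 2303 of 14419 to 14943 genes compared. Why they differed was not tested. KPT-330 libraries entered the fit for the spread. The share of cells for 1 planned gene is not reported here.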

Additional observations from a re-analysis of the deposited data

How the results depend on the processing

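No called gene described above changed direction under any alternative run, but the counts of called genes moved. The main counts for day 0.25, day 1, day 1 against day 0.25 and the mean of both against day 0 were 19, 219, 62 and 284. Fitting only the 9 untreated libraries gave 243, 622, 279 and 665. Testing every gene without a UMI minimum gave 675, 921, 551 and 1036, and using all barcodes within the stated limits gave 98, 396, 115 and 475. Library totals without TMM gave 2, 137, 41 and 105. Thinning to 4481188 UMIs gave 4 at day 0.25 and 184 for the mean. DESeq2's own test, with its missing adjusted p left out, gave 46 at day 0.25, 116 between the times and 132 for the mean, limma-trend gave 135 for the mean, and the 4 libraries alone, 2 against 2, gave 0 (1499 genes at an unadjusted p under 0.05). Leaving out either day 0 library gave 1 to 4 at day 0.25, 75 to 98 at day 1 and 11 to 37 for the mean, with the lone day 0 library assumed to vary like the other groups. Without replicate 1 and replicate 2, 83 and 66 of the 219 genes called at day 1 were called again. DESeq2 size factors, a minimum of 100 UMIs, cells with at least 1000 genes and the exclusion of mitochondrial genes kept all 4 counts within 1.5 times.

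With the replicate number as a block, the count was 0 at day 0.25 (2056 genes at an unadjusted p under 0.05), 212 at day 1, 77 between the times and 138 for the mean. The labels tie no shared animal, batch or day to a number. The 6 correlations between the deviations of same-numbered libraries ranged from −0.098 to 0.633 over 7137 genes, and 3 were over 0.1. The highest was between the untreated and KPT-330 pairs of day 6, and those of the day 0 pair were −0.052, 0.163 and 0.197. The day 0.25 and day 1 libraries both carry number 1. The main fit took no account of the number, and whether it marks a shared batch was not tested. For the shares of cells, 3 genes instead of 1 lay above both day 0 intervals at day 0.25 without thinning; with cells thinned to 1000 UMIs, 0 genes instead of 1 lay below them at day 0.25 and 1 instead of 2 at day 1. Depth limits the low genes most: Hes5, Hes7, Hey1, Hey2 and Heyl and most tuft cell genes could not be tested, and calls such as that of Gif rest on few molecules.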
